A study of Mus musculus with 6 samples.

Results

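The genes described here are 35 genes of the cell cycle and DNA replication, chosen by name, and all 35 were found among the 55487 genes of the deposited table. RNA came from the aortic media and intima of mice, the layers left once the adventitia was stripped off, and was sequenced from 6 libraries. All mice were Apoe-/-, which makes them prone to atherosclerosis, had received Apoe-/- bone marrow at 8 to 10 weeks of age, recovered for 4 weeks and were then fed, for 6 weeks, a Western diet with 21% fat and 0.15 to 0.2% cholesterol. In 3 libraries the recipients were labelled ChemR23e/eApoe-/- and described as lacking the receptor ChemR23 in non-hematopoietic cells, and in 3 they were labelled Apoe-/- with ChemR23 intact. Sex, litter and whether a library pools animals are not in the labels. Marrow-derived cells, such as most plaque macrophages, carried the intact receptor gene in both groups.

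Resting cells of the artery wall rarely divide. When a cell commits to divide, cyclin E and E2F transcription factors start S phase, the MCM2 to MCM7 helicase opens the DNA at origins, and PCNA holds the polymerases on the template. Cyclins A and B with CDK1 then bring the cell into mitosis, where Polo-like and Aurora kinases, kinetochore proteins and kinesins separate the chromosomes and the anaphase-promoting complex ends the division. Transcripts of the mitotic group are present mainly in dividing cells, which in plaques are known to include macrophages as well as smooth muscle cells, whereas the replication group can be found in cells that are not dividing.

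E2F sites are known from promoters of S phase genes, and the cell cycle homology region (CHR), the element of the DREAM and MuvB complexes, from promoters of mitotic genes. Windows of 300 bases around the RefSeq start (250 before and 50 after, GRCm38.p6) were at hand for 29 of the 35 genes, 31 windows in all. E2F-type letters (TTTCGCGC, TTTGGCGC, TTTCCCGC or TTTGGCGG, either strand, where a site and its reverse can overlap) stood in the windows of Mcm3, Mcm5, Mcm6, Mcm7 and Cdk1, or 16.1% of the windows against 2.37% of all 32851 windows. CHR letters (TTTGAA or TTCGAA, either strand, the second its own reverse) stood in 13 of 17 windows of the S/G2/M and mitosis genes (76.5%) and in 2 of 10 windows of the replication genes (20%), against 19.2% of all windows. CCAAT, the letters of the NF-Y box, stood in 83.9% of the members' windows and 37.4% of all. Of the 21263 windows of protein-coding genes, 3.02% held E2F-type, 17.6% CHR and 38.2% CCAAT letters. A match of letters is a description and not a shown binding site.

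Up to 250 bases upstream of 4 genes, cut where a GENCODE transcript begins earlier, are shown because their genes stand for the patterns below, Mcm6 for the abundant helicase, Cdk1 and Kif11 for genes whose groups did not overlap, and Ube2c for the member with the opposite direction. Capitals mark the E2F-type, CHR and CCAAT letters on either strand.
Mcm6 (chr1:128359706-128359955, - strand): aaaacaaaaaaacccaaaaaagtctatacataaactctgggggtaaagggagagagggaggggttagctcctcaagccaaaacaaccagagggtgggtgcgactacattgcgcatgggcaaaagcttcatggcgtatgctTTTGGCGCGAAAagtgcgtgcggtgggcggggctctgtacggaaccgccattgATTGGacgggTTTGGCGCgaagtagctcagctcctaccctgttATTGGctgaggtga
Cdk1 (chr10:69352939-69353162, - strand): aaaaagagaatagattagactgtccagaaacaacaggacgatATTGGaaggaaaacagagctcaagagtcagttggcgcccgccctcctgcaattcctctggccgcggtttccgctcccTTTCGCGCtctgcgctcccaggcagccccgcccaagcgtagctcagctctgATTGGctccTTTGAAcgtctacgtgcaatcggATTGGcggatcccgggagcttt
Kif11 (chr19:37376132-37376381, + strand): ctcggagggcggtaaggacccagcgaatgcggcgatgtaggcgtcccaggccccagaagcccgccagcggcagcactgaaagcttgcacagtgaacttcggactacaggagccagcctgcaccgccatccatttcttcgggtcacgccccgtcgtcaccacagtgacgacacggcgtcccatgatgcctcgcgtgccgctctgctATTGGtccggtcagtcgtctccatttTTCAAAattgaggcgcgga
Ube2c (chr2:164769679-164769897, + strand): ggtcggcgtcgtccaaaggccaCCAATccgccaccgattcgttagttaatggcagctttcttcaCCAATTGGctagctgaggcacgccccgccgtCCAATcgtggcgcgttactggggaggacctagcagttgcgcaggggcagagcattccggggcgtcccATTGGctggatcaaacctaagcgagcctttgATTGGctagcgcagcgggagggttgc
The Mcm6 stretch holds 3 E2F-type matches, of which the first pair overlaps, and 0 CHR matches. The stretch shown for Cdk1 holds 1 E2F-type, 1 CHR and 3 CCAAT matches, and that for Kif11 holds 1 CHR match, which begins 19 bases before the start. That for Ube2c holds 6 CCAAT matches and 0 CHR matches, and the 1 CHR match of its window lies in the stretch not shown.

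Several facts of the libraries bear on every comparison. The libraries held 30887855 to 38600604 reads assigned to genes. The mean that the deposited table names treated is the mean of the 3 control-labelled libraries, and the mean it names control is that of the deficient-labelled libraries, for every gene, so all directions here are those of the sample labels. Cmklr1, the gene of ChemR23, was at 2388, 1788 and 1551 normalized counts in the deficient-labelled libraries and at 1396, 1028 and 1720 in the control-labelled ones (log2 difference 0.47, SE 0.21, limma adjusted p = 0.427), so it was not lower in the former. Which part of the gene the e allele lacks was not found in the labels, and donor cells carry the intact gene, so this is no full check of the labels. Xist, made in female cells, reached 16083 and 13146 in deficient replicates 1 and 2, 373 in deficient replicate 3 and 8.87 to 22.0 in the 3 control libraries. The Y-linked Ddx3y was at 8.54 and 0 in deficient replicates 1 and 2 and at 6058 to 6796 elsewhere. Sex and group therefore cannot be fully told apart. Smooth muscle and endothelial genes were abundant, with Acta2 at 587012 to 835257 and Pecam1 at 29716 to 45393 normalized counts. Among the tested markers of wall and blood cell types, limma called 2, Hbb-bt of red cells and Ppbp of platelets, both lower in the deficient-labelled libraries. Summed levels did not overlap, and were lower there, for T cell (46.5 to 53.6 against 57.1 to 127), B cell (90.6 to 129 against 169 to 450), neutrophil (132 to 200 against 418 to 1012) and platelet markers (127 to 261 against 589 to 944). Of the 5 T cell markers, only Cd3d by itself did not overlap. Cd3g went the other way (log2 0.55, SE 0.67) and held as few as 2 reads in a library. The neutrophil marker Csf3r overlapped between groups (log2 -0.23, SE 0.39), and Ly6g was too low to test. The platelet markers Pf4 (log2 -1.76, SE 0.55) and Gp1bb (log2 -0.62, SE 0.59) overlapped as well. Adventitial fibroblast markers summed to 7889 to 12034 against 8040 to 11264, and adipocyte markers to 5.05 to 4393 against 1444 to 12117. Adipoq was uneven, at 13.3, 1711 and 1.01 normalized counts against 575, 5082 and 1010. Such markers were seen although the adventitia is described as stripped off, and how much outer tissue a library held was not tested.

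The most abundant members were genes of DNA replication, and mitotic genes were scarce. Levels of different genes are compared as normalized counts per kilobase of exon (comprehensive GENCODE models of GRCm38), as means over the 6 libraries. Pcna, the sliding clamp (chromosome 2, 132249162 to 132253314), led with 576 per kilobase and a range of 554 to 626 over libraries. Mcm6 (chromosome 1, 128331590 to 128359664) followed at 535, then Mcm4 at 199, Mcm7 at 114, Mcm3 at 103 and Rrm1, the large subunit of ribonucleotide reductase, at 85.5. Mki67, a standard histological marker of cycling cells, stood at 11.03, the mitotic cyclin gene Ccnb1 at 5.59 and the kinetochore gene Cenpf, the lowest, at 2.55. Of the 34 neighbouring pairs in this order, 3 were apart in every library, namely Mcm6 over Mcm4, Mcm4 over Mcm7 and Rrm1 over Mcm5, and the others overlapped.

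**Figure D1:**
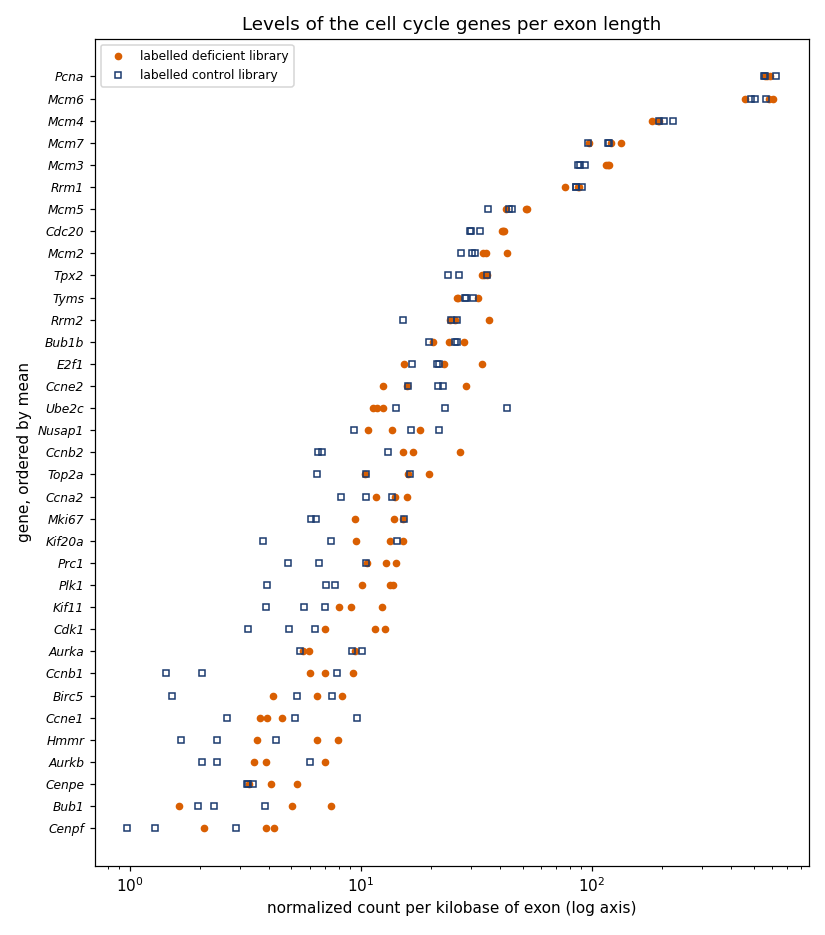
Normalized count per kilobase of exon (log axis) of each of the 35 genes, 1 point per library, with genes ordered by their mean over 6 libraries. Pcna (576) and the MCM genes stand at the top and Cenpf (2.55) at the bottom, and the points of mitotic genes spread more widely than those of the replication genes.

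The MCM proteins act as a ring with a single copy of each, and their transcripts differed 16.1-fold per kilobase between Mcm6 and Mcm2 (33.3). Mcm6 lay 2.69-fold above Mcm4, the next. With the shorter gene models of the basic annotation, tried after the data were seen, Mcm6 stayed 2.87-fold above the next MCM gene and 10.96-fold above the lowest, which was then Mcm5, while single ranks of the 35 genes moved by up to 9 places.

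No member passed the test between the groups, and the mitotic genes were the ones with the larger differences. Of the 35 genes, 0 were called by limma at an adjusted p under 0.05, where 0.135% of the 20669 genes tested were called, 0.0726% higher and 0.0629% lower. DESeq2 (4.38% of genes called) and edgeR (0.00658%) on recovered reads also called 0 members. The authors' deposited table, which calls 4.38% of its genes, lists 0 members as well. At an unadjusted p under 0.05 in limma stood 10 members above 0 and 1 below, or 31.4% of the members against 12.2% of all genes (6.36% above and 5.79% below). That count of 11 fell to 3 without labelled deficient replicate 1 and to 2 without labelled deficient replicate 2. It fell to 4 without control replicate 1 and to 2 without control replicate 3. The share of all genes under these fits is not given here, so the fall cannot be told apart from a general one. Over all genes, calls at an adjusted p under 0.05 ran from 0 to 434 with 1 library left out. In a fit of just the 4 libraries that express Y-linked genes (1 deficient, 3 control) the members' median log2 difference was 0.13. The 3 libraries of the groups did not overlap for 10 members (28.6%), against 17% of all genes, with 8 of them above in the deficient-labelled libraries and 2 below (8.8% and 8.24% of all genes). A log2 difference above 0 was found for 26 members, against 48.8% of all genes. The median log2 difference over the members was 0.37 (deficient-labelled minus control-labelled, on a scale of log2 of the normalized count + 1), against -0.01 over all genes.

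**Figure D2:**
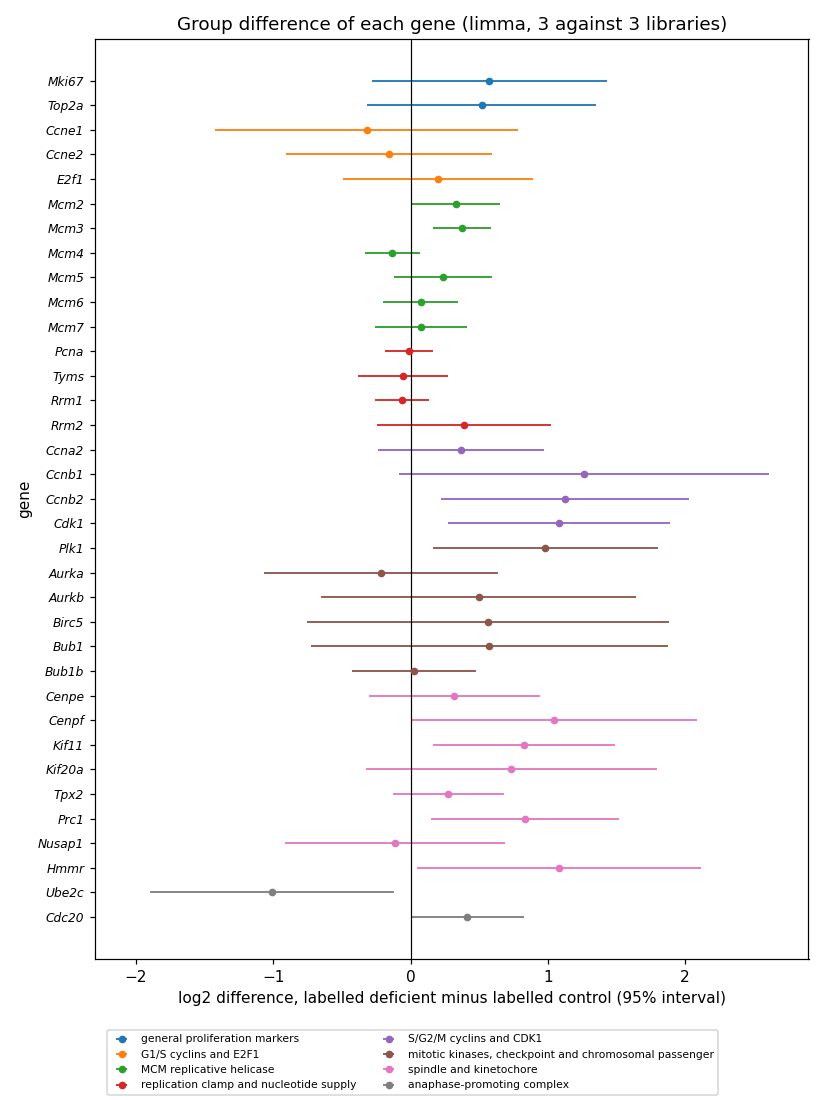
Log2 difference of each of the 35 genes, labelled deficient minus labelled control, with its 95% interval from limma (3 against 3 libraries), coloured by role. The interval of Pcna is narrow (-0.19 to 0.16), those of Mcm3 (0.17 to 0.59) and Mcm2 (0.01 to 0.65) lie above 0, that of Rrm2 is wider (-0.24 to 1.02), the mitotic genes have wide intervals mostly to the right (Ccnb1 -0.08 to 2.61), and Ube2c lies to the left at -1.01.

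The general proliferation markers did not separate the groups. Mki67 was at 140, 152 and 95.03 normalized counts in the deficient-labelled libraries and at 61.1, 154 and 64.1 in the control-labelled ones, 129 ± 30.01 against 93.1 ± 52.9 (SD, n = 3 each; log2 0.57, SE 0.37, limma adjusted p = 0.598). Top2a, the topoisomerase that untangles sister chromosomes, was at 143, 178 and 94.0 against 94.6, 146 and 58.1 (log2 0.52, SE 0.36, limma adjusted p = 0.63). In both genes control replicate 2 reached the level of the high labelled deficient libraries, and labelled deficient replicate 3 stood below its group. With 1 library left out, the log2 difference of Mki67 ran from 0.34 to 1.002 and that of Top2a from 0.18 to 0.84. In the 4 libraries with expression of Y-linked genes they were 0.17 and 0.014.

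The genes that open S phase showed no common direction. Ccne1, a cyclin E gene, was at 10.4, 9.71 and 12.1 normalized counts in the deficient-labelled libraries and at 13.8, 25.5 and 7.01 in the controls. Ccne2, the other cyclin E gene, was at 55.1, 99.3 and 43.5 against 55.9, 78.8 and 75.1, and E2f1, an activating E2F factor, at 72.2, 106 and 48.5 against 52.5, 68.8 and 67.1. The groups overlapped for all of these genes, and the log2 differences ran from -0.32 to 0.20. Ccne2 shares 609 exon bases with Ints8 on the opposite strand, and since the strand setting of the counting was not found in the labels, reads of the pair cannot be told apart.

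Among the helicase genes Mcm3 differed most evenly. Mcm3 was at 429, 444 and 440 normalized counts in the deficient-labelled libraries and at 351, 334 and 326 in the control-labelled ones, 437 ± 7.46 against 337 ± 13.0 (SD, n = 3 each). All labelled deficient libraries lay above all controls, with a log2 difference of 0.38 (SE 0.09, 95% interval 0.17 to 0.59, limma adjusted p = 0.167; adjusted p = 0.0593 by DESeq2 and 0.0594 in the authors' deposited table). Mcm2 was at 298, 235 and 242 against 216, 187 and 210, also without overlap (log2 0.33, SE 0.14, limma adjusted p = 0.401). Mcm4 went the other way, at 692, 651 and 698 against 806, 735 and 698, where the highest labelled deficient library lay just under the lowest control (log2 -0.13, SE 0.09, limma adjusted p = 0.607). Mcm5, Mcm6 and Mcm7 overlapped between groups, at log2 differences of 0.23, 0.07 and 0.08.

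Of the clamp and nucleotide supply genes, Pcna, Rrm1 and Tyms differed little between the groups and Rrm2 more. Pcna was at 1408, 1350 and 1370 normalized counts in the deficient-labelled libraries and at 1330, 1502 and 1338 among controls (log2 -0.01, SE 0.08, 95% interval -0.19 to 0.16). Rrm1 was at 967, 842 and 959 against 999, 941 and 943 (log2 -0.06, SE 0.08, 95% interval -0.26 to 0.14), and Tyms, thymidylate synthase, had an interval of -0.38 to 0.27. Rrm2, the subunit of ribonucleotide reductase that is made chiefly in S phase, was at 67.4, 99.3 and 70.8 against 42.2, 72.1 and 68.1 (log2 0.39, SE 0.27, limma adjusted p = 0.631). Control replicate 1 was its low library, and the groups overlapped.

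Among the mitotic cyclins and their kinase, the cyclin B genes held the largest log2 differences of all members. Cdk1 stood level with the spindle gene Hmmr (both 1.08), and Ccna2 lay lower. Cdk1 was at 57.0, 62.6 and 34.4 normalized counts in the deficient-labelled libraries and at 24.1, 31.1 and 16.0 in the controls, without overlap (log2 1.08, SE 0.35, 95% interval 0.27 to 1.89, limma adjusted p = 0.271). Ccnb2, a cyclin B gene, was at 25.6, 41.0 and 23.3 against 10.3, 19.97 and 10.02, also without overlap (log2 1.12, SE 0.39, limma adjusted p = 0.308). Ccnb1, the main cyclin B gene, was at 29.4, 38.8 and 25.3 against 8.60, 33.3 and 6.01 (log2 1.26, SE 0.58, limma adjusted p = 0.445). Control replicate 2 stood among the labelled deficient libraries for Ccnb1, and its controls spanned 5.54-fold. Ccna2, which acts from S phase into mitosis, was at 64.6, 57.2 and 47.5 against 33.6, 55.5 and 43.1 (log2 0.37, SE 0.26).

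Of the mitotic kinase and checkpoint genes, Plk1 was the one whose groups did not overlap. Plk1, the Polo-like kinase that drives spindle assembly, was at 29.4, 30.2 and 22.2 normalized counts against 8.60, 15.5 and 17.0 (log2 0.98, SE 0.36, limma adjusted p = 0.327). Aurka, the centrosomal Aurora kinase, was at 23.7, 15.1 and 14.2 against 13.8, 25.5 and 23.0 (log2 -0.21, SE 0.37), and Aurkb, the kinase of the chromosomal passenger complex, at 11.4, 20.5 and 10.1 against 6.02, 17.7 and 7.01. Birc5, which encodes survivin of the same complex, was at 21.8, 28.1 and 14.2 against 5.16, 25.5 and 18.03. The checkpoint genes parted in level but not by group, with Bub1 at 7.08 to 32.4 over all libraries and Bub1b at 84.2 to 120. Birc5 in control replicate 1 rested on 6 reads, whose exact Poisson 95% interval of 2.20 to 13.1 covers counting error alone.

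Spindle and kinetochore genes differed in the same direction in 7 of 8 cases. Kif11, the motor that pushes the spindle poles apart, was at 67.4, 91.7 and 59.6 normalized counts in the deficient-labelled libraries and at 42.2, 52.1 and 29.1 in the controls, without overlap (log2 0.83, SE 0.29, 95% interval 0.16 to 1.49, limma adjusted p = 0.309). Prc1, which bundles microtubules of the central spindle, was at 117, 106 and 86.9 against 39.6, 86.5 and 54.1, where the gap between the groups was narrow (log2 0.83, SE 0.30, limma adjusted p = 0.323). Hmmr, a spindle protein and hyaluronan receptor, was at 35.1, 43.2 and 19.2 against 12.9, 23.3 and 9.02 (log2 1.08, SE 0.45), and Cenpf at 59.8, 64.7 and 32.4 against 19.8, 44.4 and 15.0 (log2 1.05, SE 0.45). In both, labelled deficient replicate 3 lay below control replicate 2. Kif20a, the kinesin of the late spindle, was at 57.9, 65.8 and 41.5 against 16.3, 62.1 and 32.1. The kinetochore motor gene Cenpe, the spindle assembly factor Tpx2 and the microtubule protein Nusap1 had log2 differences of 0.32, 0.27 and -0.11. Prc1 shares 911 exon bases with Rccd1 and Kif20a 1271 with Cdc23, both on the opposite strand, and such reads cannot be told apart. In all, 10 members have exons that overlap another gene.

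The anaphase-promoting complex genes went in opposite directions, both without overlap between the groups. Cdc20, an activator of the complex, was at 76.9, 77.7 and 75.8 normalized counts in the deficient-labelled libraries and at 55.9, 55.5 and 61.1 among controls (log2 0.41, SE 0.18, limma adjusted p = 0.409). Ube2c, the ubiquitin-conjugating enzyme that serves the complex, was at 30.4, 32.4 and 29.3 against 37.0, 59.9 and 111 (log2 -1.01, SE 0.38, 95% interval -1.90 to -0.12, limma adjusted p = 0.352). The labelled deficient libraries were nearly equal for Ube2c while the controls spanned 3.01-fold. The summed level of 5 erythroid markers was 1639, 3549 and 10858 in the deficient-labelled libraries and 92335, 99866 and 283743 in the controls. Control replicate 3 was thus highest for both Ube2c and the erythroid sum. Deficient replicate 3 was the lowest of its group for Ube2c but the highest for the erythroid sum. The part of red cell RNA in the Ube2c difference was not tested. Tnnc2, which shares 592 exon bases with Ube2c on the opposite strand and was looked up after its values were seen, was at 5.55 to 32.4 and not higher among controls (log2 1.16, SE 0.54).

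**Figure D3:**
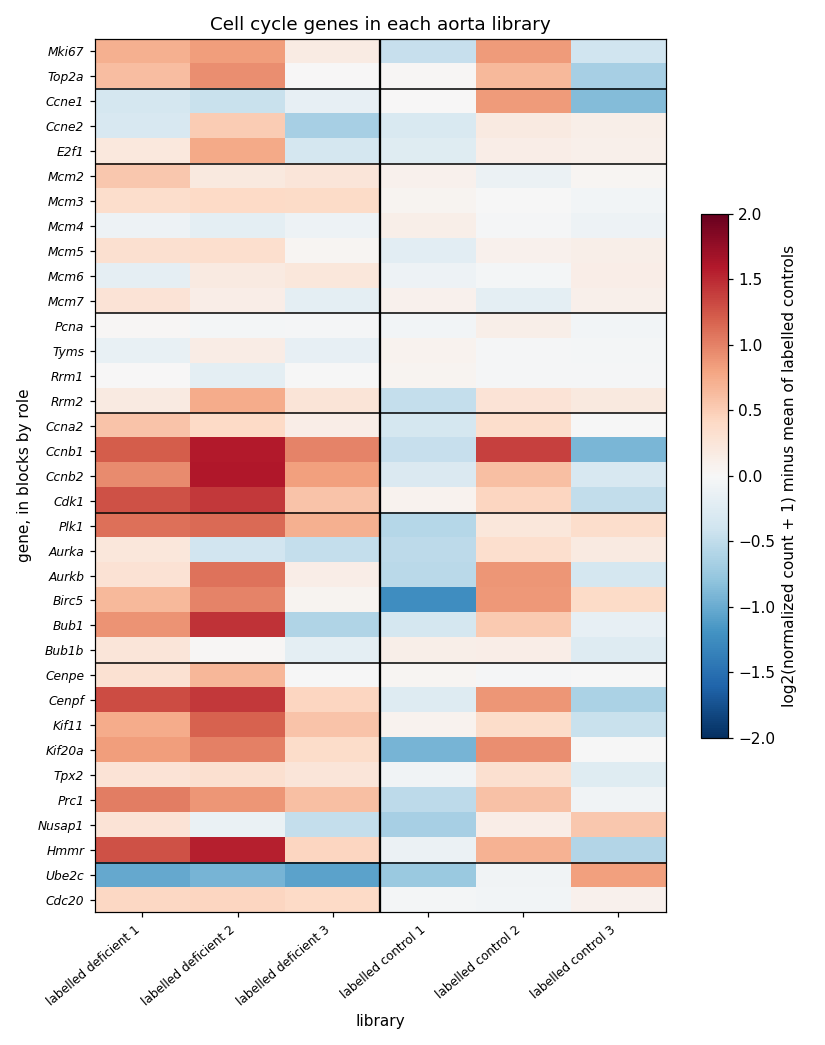
Each of the 35 genes (in blocks by role) in each of the 6 libraries, as log2(normalized count + 1) minus the mean of the labelled controls, red above and blue below it. The mitotic kinase and spindle blocks are reddest in deficient replicates 1 and 2 and in control replicate 2. The block of S/G2/M cyclins and Cdk1 is reddest in deficient replicates 1 and 2. Its median is 0.69 in deficient replicate 3 and 0.51 in control replicate 2. The replication blocks are paler apart from Rrm2 (99.3 normalized counts in deficient replicate 2, 42.2 in control replicate 1). Mcm3 is pale red and Ube2c is blue in all 3 deficient-labelled libraries.

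The mitotic members shared their high and low libraries within each group. Labelled deficient replicate 3 was the lowest of its group for 20 of the 20 S/G2/M and mitosis genes, and control replicate 2 was the highest of its group for 15 of 20. Their median, relative to the mean of the controls, was 0.69, 1.004 and 0.30 in the deficient-labelled libraries and -0.36, 0.40 and -0.12 in the controls. Labelled deficient replicate 3, the library of that group with Y-linked expression, thus lay between controls. With 1 library left out, the log2 difference ran from 0.81 to 1.95 for Ccnb1, 0.27 to 1.202 for Kif20a and -1.38 to -0.60 for Ube2c. In the 4 libraries with expression of Y-linked genes it was 0.56 for Cdk1, and 0.43 for both Cenpf and Hmmr. The 10 replication genes had medians of 0.10, 0.16 and 0.02 against 0.06, -0.02 and 0.01, a narrower range. The median ratio of the highest to the lowest control was 1.99 for the S/G2/M and mitosis genes and 1.15 for the replication genes.

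Macrophage markers ranked the libraries much as the mitotic genes did within each group, and so did the summed adventitial fibroblast and adipocyte markers. All 8 markers were tested, 0 passed limma, 2 did not overlap between groups (25%, against 17% of all genes), and no marker was at 0 in any library. Those 2, Cd68 and Lgals3, were called higher by DESeq2 (adjusted p = 0.00121 and 1.51e-04), which called 4.38% of all genes. The authors' deposited table calls 2 as well. The log2 difference was above 0 for 7 markers, from 2.11 for Cd68 to 0.25 for Csf1r, and was -0.44 for Mrc1. Their summed level was 28001, 40999 and 8647 normalized counts in the deficient-labelled libraries and 5468, 10853 and 7307 in the controls, and their median, relative to the mean of the controls, was 1.22, 1.94 and -0.47 against -0.64, 0.60 and 0.08. Lyz2, lysozyme, was at 16075, 25364 and 4270 against 2576, 4854 and 2713 (limma adjusted p = 0.258). Labelled deficient replicate 2 was thus highest and replicate 3 lowest of its group for both the macrophage and the mitotic set, and control replicate 2 the highest control. The same order held for the summed adventitial fibroblast markers (9416, 12034 and 7889 against 8040, 11264 and 10373). By their median it did not, as labelled deficient replicate 1 was lowest of its group (-0.40, 0.37 and -0.31 against -0.17, 0.23 and 0.04). Labelled deficient replicate 3 was lowest of its group for 3 of the 5 fibroblast markers. The order of the macrophage and mitotic sets also held for the summed adipocyte markers (34.2, 4393 and 5.05 against 1444, 12117 and 2751). The part of macrophage, fibroblast or adipocyte content in the mitotic differences was not tested. In bulk tissue more cells of a type and more RNA per cell cannot be told apart.

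**Figure D4:**
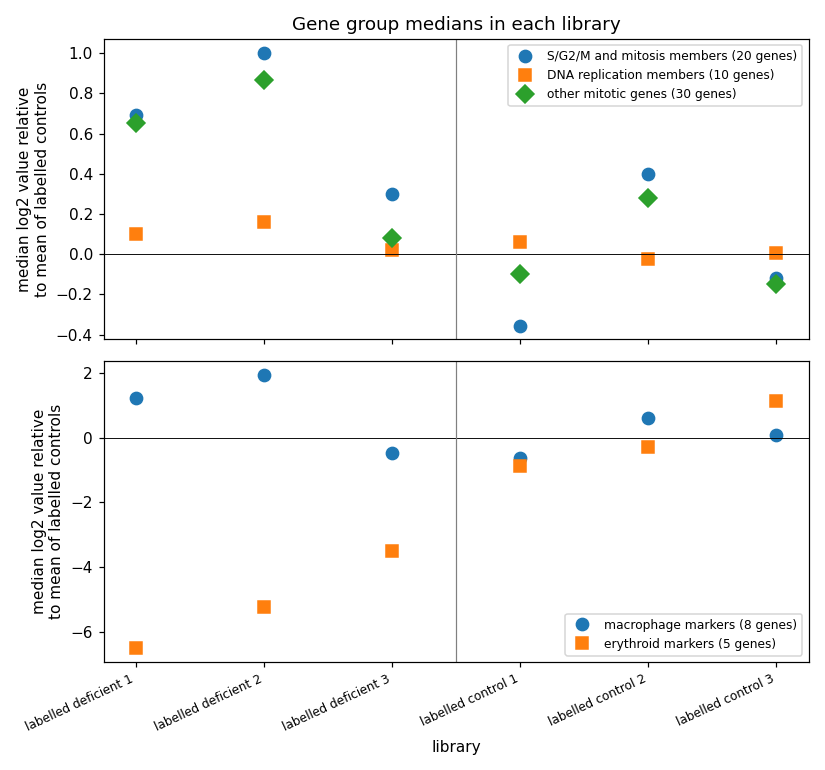
Median log2 value per library, relative to the mean of the labelled controls, of the S/G2/M and mitosis genes, the replication genes and 30 other mitotic genes (upper panel) and of macrophage and erythroid markers (lower panel). The mitotic medians (0.69 in deficient replicate 1, 0.40 in control replicate 2) are high in libraries where macrophage markers are high. Deficient replicate 3 differs, above control replicate 3 for the mitotic members (0.30 against -0.12) and below it for macrophage markers (-0.47 against 0.08). The replication medians stay between -0.02 and 0.16.

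Of 103 further cell cycle genes, 0 passed limma, with 6 above 0 and 6 below at an unadjusted p under 0.05 (11.7%, near the 12.2% of all genes). DESeq2 called 2 of the 103, a lower share than the 4.38% it called of all genes. The other mitotic genes leaned like the members, with 25 of 30 above 0 and a median log2 difference of 0.62. Spag5, a spindle protein, was at 26.6, 22.7 and 21.2 normalized counts against 12.0, 15.5 and 9.02 (log2 0.92, SE 0.33, limma adjusted p = 0.326). Anln, which encodes the cytokinesis scaffold anillin, was far more abundant, at 3967, 3571 and 4476 against 5123, 5240 and 4373 (log2 -0.30, SE 0.11, limma adjusted p = 0.321). The 20 replication fork genes had a median of 0.02. Tk1, thymidine kinase of the nucleotide salvage path, stood apart from it at 73.1, 92.8 and 63.7 against 27.5, 51.0 and 32.1 (log2 1.07, SE 0.29, limma adjusted p = 0.207), while Uhrf1, a maintenance factor of DNA methylation, differed by 0.77 (SE 0.40) and the single-strand binding gene Rpa1 by -0.12 (SE 0.16).

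The genes that DESeq2 called were Cdkn1a and E2f2, both lower in the deficient-labelled libraries. Cdkn1a, the p21 inhibitor that p53 induces, was at 3928, 2924 and 2921 normalized counts against 6202, 6184 and 3679, where control replicate 3 lay below deficient replicate 1 (log2 -0.69, SE 0.21, limma adjusted p = 0.254; DESeq2 adjusted p = 0.0142). E2f2, an E2F factor that also acts in red cell maturation, was at 52.2, 63.7 and 48.5 against 93.8, 156 and 183 (log2 -1.34, SE 0.27, limma adjusted p = 0.114; DESeq2 adjusted p = 6.87e-04). Over the 3 controls E2f2 and the summed erythroid markers stood in the same order. Over the deficient-labelled libraries they did not, as replicate 3 was lowest for E2f2 and highest for the erythroid sum (1639, 3549 and 10858). The part of red cell RNA in the E2f2 difference was not tested. Cdkn2b, the p15 inhibitor, was at 31.3, 33.5 and 36.4 against 52.5, 52.1 and 77.1 (log2 -0.80, SE 0.25, limma adjusted p = 0.251), whereas Cdkn1b, the abundant p27 inhibitor, differed by 0.00 (SE 0.11, 95% interval -0.26 to 0.26). The 7 CDK inhibitors had a median of -0.04.

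None of the genes named here that act before S phase passed limma. The median log2 difference was 0.06 over 6 G1 cyclin and CDK genes, -0.03 over 16 RB family, E2F and DREAM genes and -0.01 over 17 licensing and firing genes. The cyclin D genes Ccnd2 and Ccnd1 differed by 0.06 (SE 0.09) and 0.27 (SE 0.20), and their kinase gene Cdk4 by 0.15 (SE 0.07, limma adjusted p = 0.467). Rbl2, the p130 pocket protein that keeps resting cells out of the cycle, was at 3259, 3261 and 3443 normalized counts against 3922, 3590 and 3721 (log2 -0.17, SE 0.07, limma adjusted p = 0.351). Of the licensing and firing genes, 0 had an unadjusted p under 0.05, with Orc4 at -0.14 (SE 0.09), Orc5 at -0.21 (SE 0.11) and Cdt1, which loads the MCM ring, at 0.44 (SE 0.26). The 7 checkpoint and CDC25 genes had a median of 0.02, with Chek2 at 0.27 (SE 0.13) and Cdc25b at 0.45 (SE 0.22).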

How the data were processed

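RNA of 6 mouse aorta libraries was measured, 3 per group; labels number no replicates, so replicates 1 to 3 follow the order of deposition and pair nothing. Nothing says that each library came from a separate animal, so p-values measure the spread between these samples. Per the labels' protocols, poly(A) RNA went into a stranded kit (TruSeq) and both read ends were sequenced. GRCm38 is the build in the submitters' processing notes, which name R 4.2.0, featureCounts 2.0.1, HISAT2 2.2.1, bcl2fastq 2.20 and DESeq2 1.36.0; for annotation and strand setting the sources used here give nothing.

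The deposited table gives a signal per gene and library, read counts that the authors scaled by a single size factor for each library, judged from the values. The authors' log2 fold change, its standard error, a test score and the authors' p-values are also in the deposited table. Dividing each library's values by its smallest value above 0 gave whole numbers (tolerance 0.001) in 100% of cases, so whole reads were recovered for edgeR and DESeq2; in deficient replicate 3 and control replicate 3 that step lay close to 1 (1.01 and 1.002), where an automated check could not tell it from rounding. Missing symbols (3422) were filled for 3304 genes by gene ID.

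Because the values are normalized and not raw counts, limma 3.58.1 (eBayes with trend, two-sided, Benjamini-Hochberg) on log2(normalized count + 1) was the main test, on the 20669 genes whose mean normalized count reached 1; this offset understates changes of low genes. All 35 members passed the filter. edgeR 4.0.16 and DESeq2 1.42.0 were alternatives, in R 4.3.3. The gene-wise fits were tested on simulated data, in which only genes more abundant than most mitotic members changed, at a fixed dispersion. The power of the fits for scarce genes was not tested. Exon lengths are unions of GENCODE exons, and promoters are from RefSeq, both of GRCm38; 1 member lies on chromosome 18.

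Members, lists and tests were chosen with earlier results of these data known. Named genes were all members, Cmklr1, called genes of each further list or, with none called, the 2 with the lowest p and the 1 with the highest mean, and the 2 highest markers of each cell type.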

Additional observations from a re-analysis of the deposited data

How the results depend on the processing

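No paired analysis was possible because the labels give no replicate numbers. Of 15 alternatives, none called a member, and 23 members kept their sign in all of them while 12 changed it at least once. The members' median log2 difference of 0.37 ran from 0.22 to 0.46 with 1 replicate left out and was 0.13 in the 4 libraries with Y-linked expression. Over all genes limma called 28, and among the cell type markers together with the sex-linked genes it called 2. Without a filter these were 91 and 12, with a mean of at least 10 they were 1 and 0, without a trend 6 and 0, in the Y-linked set 0 and 0, by edgeR 1 and 0, and by DESeq2 713 and 19. With 1 replicate left out they ran from 0 to 434 and from 0 to 18, both highest without deficient replicate 3. DESeq2 called 2 of the other cell cycle genes, and the other alternatives 0. The cause of these shifts was not tested.

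In the Y-linked set, where the lone deficient library is assumed to vary like the others, these log2 differences changed sign: E2f1 -0.36, Mcm7 -0.19, Bub1 -0.61, Bub1b -0.19, Cenpe -0.0015, Ccnd2 -0.022, Cdt1 -0.0097, Orc4 0.0092, Cd34 -0.082 and Lum -0.21. Cdkn1b was at -0.0058 by edgeR and -0.0029 by DESeq2. With 1 replicate left out the sign was not kept by Ccne1 (-0.76 to 0.11), Ccne2 (-0.49 to 0.095), E2f1 (-0.074 to 0.48), Mcm6 (-0.0044 to 0.20), Mcm7 (-0.026 to 0.21), Pcna (-0.043 to 0.044), Rrm1 (-0.096 to 0.0046), Birc5 (-0.058 to 0.99), Bub1b (-0.10 to 0.14), Nusap1 (-0.45 to 0.15), Ccnd2 (-0.037 to 0.11), Cdkn1b (-0.11 to 0.078), Rpa1 (-0.23 to 0.031), Cd3g (-0.23 to 1.15) and Lum (-0.10 to 0.43). Of the 23 members that kept their sign, 16 moved by over 1.5 times under at least 1 alternative. Beside those given in the report, leaving out 1 replicate gave Mcm4 -0.18 to -0.076, Mcm5 0.13 to 0.33, Tyms -0.15 to -0.00089, Rrm2 0.15 to 0.53, Ccna2 0.19 to 0.55, Aurka -0.47 to -0.049, Aurkb 0.20 to 0.94 and Tpx2 0.15 to 0.43. Counts as low as 6 reads in scarce mitotic genes limit what 3 libraries per group can show.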
